A study of Mus musculus with 26 samples.

Results

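Otx2, Pou3f1, Sall1, Sall2, Zic1, Zic2, Zic4 and Zic5 are 8 transcription factor genes that are usually named with the primed epiblast or with the neural plate that forms from it. They were taken as a named list by a rule that uses no measured value, but the list was drawn up with earlier results of these data known. All 8 are among the 15646 genes of the RNA table, and each has 1 baited promoter fragment among the 19022 baited fragments of the contact lists. In these data 1 of the 8, Sall2, was at least 2-fold higher in EpiSCs than in WT ESCs after scaling, beside 10.4% of all genes, and 3 of the 8 were so without scaling, beside 30.1%. Zic2 and Zic5 were at least 2-fold lower in Nanog-/- ESCs, beside 1.35% of all genes. Zic1 and Zic4 were below 1 RPKM in every cell state.

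The epiblast of the mouse embryo passes from a naive state, which embryonic stem cells (ESCs) resemble, to a primed state after implantation, which epiblast stem cells (EpiSCs) resemble. OTX2 is a homeodomain factor of the early epiblast and later of the forebrain and midbrain, and POU3F1, also called OCT6, is a POU-domain factor of the epiblast and of neural progenitors. SALL proteins are zinc-finger repressors related to the pluripotency factor SALL4. ZIC proteins are zinc-finger factors of the epiblast, the neural tube and the cerebellum, and their genes stand in head-to-head pairs, Zic1 with Zic4 and Zic2 with Zic5.

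The data came from 3 cell states and from a pair of assays, RNA sequencing and promoter capture Hi-C (PCHi-C). PCHi-C ligates HindIII restriction fragments that lie together in cross-linked nuclei and recovers the ligation products that carry a promoter by means of RNA baits. WT ESCs were the line E14Tg2a, grown on gelatin in serum with LIF. Nanog-/- ESCs were a single line, RCNβH-B(t), made from E14Tg2a, grown in the same medium and passed through hygromycin during expansion. EpiSCs were derived from 129S2 embryos and grown on fibronectin in N2B27 with Activin A and bFGF, with no Nanog mutation stated. The sample labels give C57BL/6 for all cells, while the growth protocol gives 129P2/OlaHsd for E14Tg2a. Line, medium and cell state change together between EpiSCs and WT ESCs and cannot be told apart, nor can the loss of Nanog and the particular line in the Nanog-/- cells.

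The RNA samples were 3 from WT ESCs, 4 from EpiSCs and 3 from Nanog-/- ESCs, but the deposited level of a gene is the authors' median over a group in RPKM, reads scaled to gene length and library size. The 12 sequencing lanes of PCHi-C, 5 from WT ESCs, 2 from EpiSCs and 5 from Nanog-/- ESCs, were combined by the authors into 1 list per state. No value below therefore has a replicate error or a test, a 2-fold difference is a difference between pooled values, and the order of neighbouring levels cannot be set against their spread. Nanog was at 418 RPKM in WT ESCs, 22.3 in Nanog-/- ESCs and 191 in EpiSCs, so the column matched to the knockout is low in Nanog. EpiSC medians lay 1.89-fold above those of WT ESCs over 9077 genes at 1 RPKM or more in both, a shift of 0.91 on the log2 scale. EpiSC levels were divided by that ratio throughout. Naive markers were at least 2-fold lower in EpiSCs for 12 of 12 measured genes, beside 9.66% of all genes. Mesendoderm genes were at least 2-fold higher for 8 of 10, beside 10.4%. Beside 1.69% of all genes, 7 of 8 primitive endoderm genes were at least 2-fold higher in Nanog-/- ESCs. Their summed level was 126 RPKM against 16.7 in WT ESCs, with Gata6 at 16.4 against 0.538, Gata4 at 18.5 against 1.29 and Sox7 at 9.18 against 0.127.

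Zic2 carried the largest contact landscape of the 8 genes, and most of it lay inside the introns of Clybl, which encodes a mitochondrial citramalyl-CoA lyase. The fragments below are shown because they held the 2 highest contact scores of any of the 8 genes, both from the Zic2 bait in EpiSCs, and the highest score of Sall1. Sequences are the GRCm38.p6 plus strand from RefSeq. The first line gives the central 300 bases of the 1613-base fragment chr14:122256985-122258597, which holds an exon of Clybl. The next gives the whole 244-base fragment beside it, in a Clybl intron. The last gives the central 300 bases of the 1340-base fragment chr8:89576960-89578299, which lies between genes upstream of Sall1. Capitals mark matches on either strand to 4 motifs: ATGCAAAT, the octamer that POU factors bind; TAATCC, a core bound by bicoid-type homeodomains such as that of OTX2; CAGCAGG, a core of ZIC motifs; and a CTCF-like core of CC, 3 free bases, AG, 2 free bases and GGC.

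Zic2 contact, Clybl exon fragment, chr14:122257642-122257941: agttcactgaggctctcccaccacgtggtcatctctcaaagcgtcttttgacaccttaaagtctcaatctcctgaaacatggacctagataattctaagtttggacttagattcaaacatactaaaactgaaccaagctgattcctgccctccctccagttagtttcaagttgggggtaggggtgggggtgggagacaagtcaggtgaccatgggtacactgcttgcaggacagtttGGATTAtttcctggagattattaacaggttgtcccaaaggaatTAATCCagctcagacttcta
Zic2 contact, Clybl intron fragment, chr14:122258598-122258841: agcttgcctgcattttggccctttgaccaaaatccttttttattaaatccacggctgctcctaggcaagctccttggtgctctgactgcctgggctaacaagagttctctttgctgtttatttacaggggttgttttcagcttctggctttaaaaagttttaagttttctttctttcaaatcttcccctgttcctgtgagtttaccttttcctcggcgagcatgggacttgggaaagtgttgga
Sall1 contact, chr8:89577480-89577779: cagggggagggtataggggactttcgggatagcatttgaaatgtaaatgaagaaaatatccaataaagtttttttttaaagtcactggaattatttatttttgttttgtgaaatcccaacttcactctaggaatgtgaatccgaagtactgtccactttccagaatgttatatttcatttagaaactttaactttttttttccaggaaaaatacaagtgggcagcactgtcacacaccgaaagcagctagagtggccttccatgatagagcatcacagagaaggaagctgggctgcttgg

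The central window of the Clybl exon fragment held TAATCC at 2 places, and 12.3% of 300-base windows at the centres of all 77034 unbaited contacted fragments held at least 1. The other printed windows held none of the 4 motifs. Over its full length the Clybl exon fragment held the octamer at 2 places, both on the minus strand, so that they read as ATTTGCAT below. Of 5412 unbaited contacted fragments within 10% of its length, 9.26% held at least 1 octamer and 0.499% held 2 or more. The full length also held TAATCC at 3 places and neither of the other 2 motifs. The other printed fragments held none of the 4 motifs over their full lengths. A share among fragments of like length was taken for the octamer only. It does not tell how rare a match to any of the 4 motifs in any of these fragments would be. These are matches of letters, and no binding was measured here.

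First octamer, chr14:122257095-122257134: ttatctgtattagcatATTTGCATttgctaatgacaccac
Second octamer, chr14:122258456-122258495: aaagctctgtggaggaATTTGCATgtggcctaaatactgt

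Zic2 encodes a ZIC factor needed for the neural tube and the forebrain midline. Its level was 29.3 RPKM in WT ESCs, 57.1 in EpiSCs after scaling and 4.62 in the Nanog-/- line. It was highest in EpiSCs and lowest in the Nanog-/- line. The difference from WT ESCs was 0.94 in EpiSCs and −2.43 in the Nanog-/- line, both on the scale of log2(RPKM + 1), which understates the changes of genes with low levels. Of all genes, 0.032% fell further than Zic2 in Nanog-/- ESCs. Zic5, its head-to-head partner with a role in the neural crest, was at 28.0 RPKM in WT ESCs, 27.1 in EpiSCs and 9.83 in the Nanog-/- line. Its log2 difference was −0.04 in EpiSCs after scaling, or 0.85 without it, and −1.42 in the Nanog-/- line, where 0.511% of genes fell further. Both genes of the pair were thus lowest in the cells without Nanog, in which the primitive endoderm genes above were high. Whether cells that express such genes have a part in the result was not tested, and fewer cells that express a gene and less RNA per cell cannot be told apart in bulk samples.

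Zic1 and Zic4, the cerebellar pair, were hardly measured. Zic1 was at 0.0451 RPKM in WT ESCs, 0.242 in EpiSCs and 0.368 in the Nanog-/- line. Zic4 was listed at 0 in WT ESCs, at 0.0309 in EpiSCs and at 0.0159 in the Nanog-/- line. Both genes overlap on opposite strands, and the sources used here do not say whether reads were counted by strand, so reads in the overlap cannot be assigned. These levels were too low for a fold change to be read.

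Otx2 was at 39.5 RPKM in WT ESCs, 41.4 in EpiSCs after scaling and 49.7 in the Nanog-/- line. The EpiSC level turns on the scaling, since it was 78.0 RPKM without it, a log2 difference of 0.97 from WT ESCs. After scaling its log2 differences from WT ESCs were 0.07 in EpiSCs and 0.32 in the Nanog-/- line. Pou3f1 was at 23.0 RPKM in WT ESCs, 42.8 in EpiSCs after scaling and 18.5 in the Nanog-/- line, with log2 differences of 0.87 in EpiSCs and −0.30 in the Nanog-/- line. Neither gene passed 2-fold in either comparison after scaling.

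The SALL genes went in opposite directions in EpiSCs after scaling. Sall1, a factor of kidney and limb development, was at 85.4 RPKM in WT ESCs, 45.4 in EpiSCs and 49.8 in the Nanog-/- line. It was the highest of the 8 genes in WT ESCs, and its log2 differences of −0.90 and −0.76 stopped short of 2-fold. Without scaling its difference in EpiSCs was 0.003, so its lower level there rests on the scaling. Sall2, its relative with a role in eye and neural development, was at 4.50 RPKM in WT ESCs, 25.4 in EpiSCs and 7.44 in the Nanog-/- line. The EpiSC level was 2.26 higher than that of WT ESCs on the log2 scale, and 1.78% of genes rose further.

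**Figure D1:**
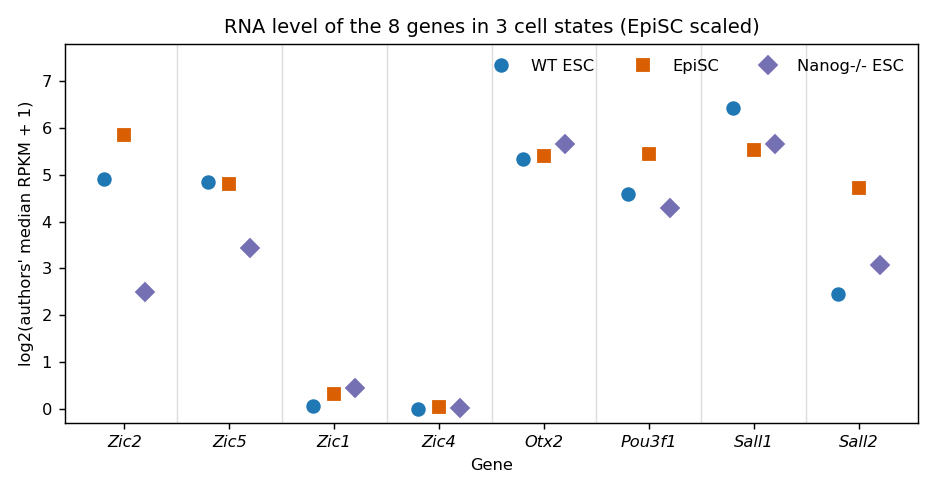
The plot gives the RNA level of each gene, as log2 of the authors' median RPKM plus 1, in WT ESCs (circles), EpiSCs after scaling (squares) and Nanog-/- ESCs (diamonds); each point is 1 pooled value with no error. Sall2 stands 2.26 higher in EpiSCs than in WT ESCs, and Zic2 and Zic5 differ by −2.43 and −1.42 in Nanog-/- ESCs.

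At 2-fold or more, 1 of the 8 genes was higher in EpiSCs than in WT ESCs, beside 10.4% of all genes, and 0 were lower, beside 9.66% of all genes. In Nanog-/- ESCs 0 of the 8 were higher, beside 1.69% of all genes, and 2 were lower, beside 1.35%. The median log2 difference of the 8 was 0.16 in EpiSCs and −0.14 in the Nanog-/- line, where over all genes it was 0.00 and 0.01. The EpiSC count rests on the scaling. Without it, Pou3f1 at 1.77, Zic2 at 1.84 and Sall2 at 3.15 on the log2 scale were past 2-fold, so that 3 of the 8 were higher and 0 lower beside 30.1% and 5.78% of all genes, and Sall1 at 0.003 no longer lay below its WT ESC level.

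Other genes of the same pathway and families were taken as lists. Of all genes, 10.4% were at least 2-fold higher in EpiSCs and 9.66% lower. Of 14 measured genes of the primed epiblast, 6 were at least 2-fold higher in EpiSCs and 3 were lower. The largest rises were those of Fgf5, a growth factor of the primed epiblast, at 4.35 on the log2 scale, of Cdh2, which encodes N-cadherin, at 3.37, and of Sox3 at 2.72. Tcf15, Lefty2 and Grhl2 were lower, with log2 differences of −2.93, −2.74 and −2.46. In Nanog-/- ESCs 3 of the 14 were at least 2-fold higher, beside 1.69% of all genes, and 4 were lower, beside 1.35%. The 3 higher genes were Dnmt3a at 1.501, Tcf15 at 1.44 and Sox4 at 1.23 on the log2 scale. Fgf8 at −1.85, Fgf5 at −1.44 and Pim2 at −1.29 were among the 4 lower genes. The 7 measured relatives of the 8 genes stayed within 2-fold in both comparisons. Of 10 measured neural genes, 1 was at least 2-fold higher and 1 lower in EpiSCs, near the shares of all genes.

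The genes closest to each of the 8 in level over the 3 states were found by the Euclidean distance of their log2(RPKM + 1) values, and the likeness rests on 3 values only. Otx2 lay 0.039 from Ap1g1, Sall2 lay 0.097 from Plekho1, Pou3f1 lay 0.12 from Kdelc1 and Sall1 lay 0.14 from Mdc1. Zic5 was 0.37 from its nearest gene, Pycr1. Zic2 had no close companion: the nearest of all genes, Calca, lay 0.83 away at 19.8 RPKM in WT ESCs, 49.9 in EpiSCs and 7.53 in the Nanog-/- line.

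In the contact lists, each entry names a pair of HindIII fragments, the number of read pairs that join them and the CHiCAGO score, which weighs those reads against the background at that distance. The lists hold scores of 5 or more, so that a contact not listed was not detectable at that score and depth. The 8 baits had 62 contacts in WT ESCs, 88 in EpiSCs and 31 in the Nanog-/- line. These were 61, 88 and 30 different pairs, since the Zic2 and Zic5 contact was counted for both baits. None of these contacts joined different chromosomes. None reached a fragment of the study's list of super-enhancers, dense clusters of active enhancers, that had been defined earlier in ESCs. The paper also called super-enhancers anew in ESCs and in EpiSCs, and no contact was checked against those. The whole lists held 100492, 87369 and 74931 pairs.

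Zic2 had 20 contacts in WT ESCs, 36 in EpiSCs and 21 in the Nanog-/- line. Of all baits, 0.883% had as many contacts as Zic2 or more in EpiSCs, and the median bait had 3. Sall1 had 6, 22 and 1 contacts in the same order, and Sall2 had 19, 19 and 3. Zic5 had 4, 5 and 3, Otx2 and Zic1 each had 4, 1 and 0, Pou3f1 had 3, 3 and 2, and Zic4 had 2, 1 and 1. The 8 baits therefore fell into 3 with many contacts in at least 1 state and 5 with few in any.

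**Figure D2:**
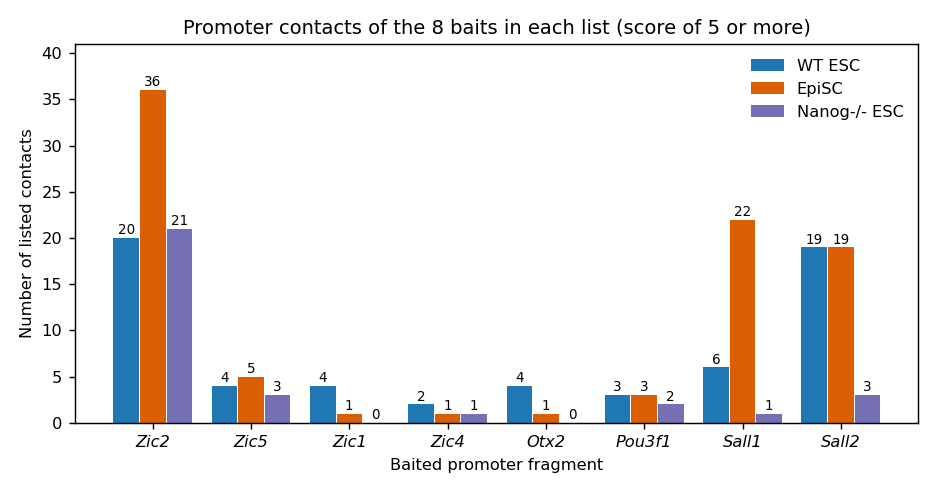
Bars give the number of listed contacts of each baited promoter fragment in the WT ESC, EpiSC and Nanog-/- ESC lists, with 1 combined list per state and no error. Zic2 is highest in EpiSCs at 36, Sall1 goes from 6 in WT ESCs to 22 in EpiSCs, and Sall2 is at 19, 19 and 3.

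Among the 6 baits with at least 4 contacts in WT ESCs or EpiSCs, 1 had at least 2-fold more in EpiSCs, Sall1, beside 16.1% of all such baits. This call rests on contacts with few reads, since Sall1 had 6 contacts in EpiSCs and 5 in WT ESCs at a minimum of 10 reads. In the same comparison 2 had at least 2-fold fewer, Otx2 and Zic1, beside 30.3%. Zic2 stayed just under, at 36 against 20, and passed 2-fold once the counts were divided by the size of the lists, at 41.4 against 20. In Nanog-/- ESCs against WT ESCs, 0 of 6 had at least 2-fold more contacts, beside 7.27% of baits, and 4 had fewer, Otx2, Sall1, Sall2 and Zic1, beside 33.2%.

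Of the 61 pairs in WT ESCs, 32 were also in the EpiSC list, which is 52.5% with a 95% Wilson interval of 40.2% to 64.5%. The same share over all WT ESC pairs was 39.6%. The Nanog-/- list held 20 of the 61, which is 32.8% with an interval of 22.3% to 45.3%, against 41.8% of all pairs. Of the 88 EpiSC pairs, 32 were in the WT ESC list, 36.4% against 45.5% of all EpiSC pairs. Of the 30 Nanog-/- pairs, 20 were in the WT ESC list, 66.7% against 56% of all. The intervals cover counting error only, and contacts of 1 bait with neighbouring fragments are not independent of each other. Zic2 kept most of its WT ESC contacts, with 17 of 20 in EpiSCs and 13 of 20 in the Nanog-/- line, while Sall1 had 1 of 6 in each and Otx2, Zic1 and Zic4 had 0. The median distance of the pairs was 189 kb in WT ESCs, 219 kb in EpiSCs and 200 kb in the Nanog-/- line, against 139, 141 and 74.1 kb for all pairs. Zic2 alone had 20, 36 and 21 of these pairs, at median distances of 210, 218 and 218 kb, so the medians rest in good part on 1 bait. Baited fragments were the partner in 15 of 61 pairs in WT ESCs, 6 of 88 in EpiSCs and 8 of 30 in the Nanog-/- line, or 24.6%, 6.82% and 26.7%, where the shares over all pairs were 23.1%, 18.4% and 22.0%. Most EpiSC pairs were those of Zic2 and Sall1, 36 and 22 of the 88, and both baits had 0 baited partners there. The 6 baited partners were 4 of Sall2, 1 of Otx2 and 1 of Pou3f1.

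The Zic2 bait, chr14:122473342-122477678, holds the annotated start of the gene. Clybl begins upstream of it and runs toward it on the plus strand at chr14:122181704-122402234. The bait contacted 16 fragments in this gene in WT ESCs, 29 in EpiSCs and 15 in the Nanog-/- line, at 89.9 to 294 kb from the bait over the 3 lists. These contacts added up to 180, 401 and 133 reads. The fragment with an exon of Clybl printed above, 218 kb away, was joined to Zic2 by 19 reads at a score of 17.0 in WT ESCs, by 31 reads at 32.9 in EpiSCs and by 8 reads at 7.05 in the Nanog-/- line. Only 0.226% of pairs within chromosomes in the EpiSC list scored as high. The 244-base fragment next to it had 12 reads and a score of 8.96 in WT ESCs and 30 reads and 31.3 in EpiSCs, and it was not listed in Nanog-/- ESCs. The fragment chr14:122255498-122256588, on the other side of the exon fragment, had 14, 25 and 12 reads at scores of 11.2, 25.5 and 12.1 in WT ESCs, EpiSCs and Nanog-/- ESCs.

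Over the 17 Zic2 contacts listed in both WT ESCs and EpiSCs, the median ratio of EpiSC to WT ESC reads was 1.4, with more reads in 10, fewer in 4 and the same in 3. Over all pairs listed in both states the median ratio was 0.833. Over the 13 Zic2 contacts listed in both WT ESCs and Nanog-/- ESCs the ratio was 0.818, with fewer reads in all 13, while the median over all such pairs was 0.619. The score was nevertheless higher in Nanog-/- ESCs in 10 of these 13, so reads and scores did not move together between lists. This held for the lists as a whole, since the median score difference was 0.17 over all such pairs, against 0.91 for those of Zic2.

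A further group of contacts lay on the other side of Zic2, in or near Pcca, which encodes a subunit of propionyl-CoA carboxylase, and Ggact. WT ESCs had none of them. EpiSCs had 6, of which the highest scores were 13.8 with 12 reads at chr14:122875500-122876785, 401 kb away, and 11.7 with 16 reads at chr14:122637002-122638041, 162 kb away. Nanog-/- ESCs had 2, at the first of these with 7 reads and a score of 7.66 and at the fragment after it with 7 reads and 7.39. These contacts and the contacts of Zic2 with Clybl are on either side of the bait in the plot of score by distance. Near the bait, the fragment chr14:122484957-122487713, 10.8 kb away, was joined to Zic2 by 92, 72 and 82 reads in WT ESCs, EpiSCs and Nanog-/- ESCs.

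**Figure D3:**
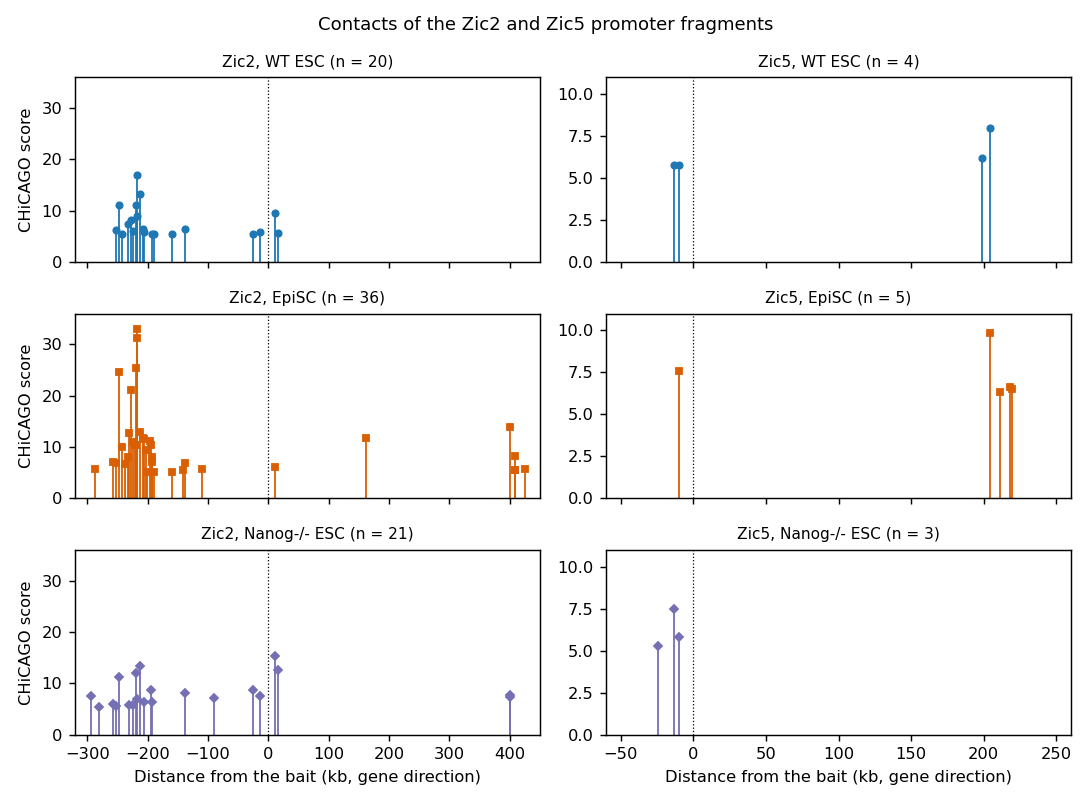
Each stem is a contact of the Zic2 (left) or Zic5 (right) bait in the WT ESC, EpiSC or Nanog-/- ESC list, placed by its distance from the bait in kb, with the direction of transcription to the right, and by its CHiCAGO score. The upstream group of Zic2 in Clybl reaches 17.0, 32.9 and 13.4 in the 3 states, and Zic5 has 2, 4 and 0 contacts with the same gene.

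Zic5, whose bait chr14:122457384-122466832 lies 13.4 kb from that of Zic2, reached the same place with fewer contacts. It contacted 2 fragments in Clybl in WT ESCs, 4 in EpiSCs and 0 in the Nanog-/- line, and the Zic2 bait contacted all of these in the same list. The Clybl exon fragment was joined to Zic5 by 6 reads at a score of 7.99 in WT ESCs and by 7 reads at 9.83 in EpiSCs. It was not listed for Zic5 in Nanog-/- ESCs. Other baits of the locus reached Clybl too: Gm5089 with 3 contacts in WT ESCs, 9 in EpiSCs and 1 in the Nanog-/- line, and Gm10837 with 3, 5 and 0. The contact numbers thus went in the same order for both Zic genes and these neighbours in Clybl, highest in EpiSCs. Summed over the 8 other baits within 500 kb of Zic2, contacts numbered 23 in WT ESCs, 37 in EpiSCs and 12 in the Nanog-/- line. These sums hold the Clybl contacts of the neighbours just given, and 3, 0 and 4 pairs with Zic2 itself.

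Of the pairs that the 8 baits can form, only Zic2 with Zic5 was listed. It had 29 reads at a score of 5.74 in WT ESCs and 21 reads at 7.51 in Nanog-/- ESCs, in both cases from the Zic5 bait only, and was not listed in EpiSCs. A fragment between both baits, chr14:122470172-122473341, was joined to Zic5 by 27, 36 and 20 reads in WT ESCs, EpiSCs and Nanog-/- ESCs. Zic1 and Zic4 lie on fragments that touch each other, and as the lists hold 0 contacts between touching fragments of any kind, a contact of this pair could not be seen. The RefSeq promoter of Zic5, from 250 bases before to 50 after the start and within its bait, is shown because that bait reached Clybl together with that of Zic2. It is written on the minus strand, which is that of the gene, and none of the 4 motifs occurred in it, where 1.74% of 32851 promoters held the octamer, 7.06% TAATCC, 10.5% CAGCAGG and 8.61% the CTCF-like core.

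Zic5 promoter, chr14:122465609-122465908: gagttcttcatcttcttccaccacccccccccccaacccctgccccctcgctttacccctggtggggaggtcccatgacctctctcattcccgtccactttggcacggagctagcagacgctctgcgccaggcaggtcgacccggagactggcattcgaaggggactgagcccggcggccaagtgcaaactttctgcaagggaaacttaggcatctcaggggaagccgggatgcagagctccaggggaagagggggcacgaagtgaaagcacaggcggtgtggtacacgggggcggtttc

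Zic1 and Zic4 shared a distant partner in WT ESCs. The Zic4 bait, chr9:91353295-91363374, was joined by 8 reads at a score of 15.2 to the promoter fragment of Rasgrf1, which encodes an exchange factor for RAS proteins, over 1449 kb, and the contact was listed from both ends. Zic1, on the next fragment at chr9:91363375-91366667, had 4 reads at 5.29 to the same Rasgrf1 fragment and 4 reads each to 2 fragments near it at scores of 6.16 and 6.06. None of these was listed in EpiSCs or Nanog-/- ESCs. Of WT ESC pairs at that distance or more, 10.3% scored as high as that of Zic4. Rasgrf1 was at 0.0228 RPKM in WT ESCs, 0.00492 in EpiSCs and 0.0218 in the Nanog-/- line, and so was below 1 RPKM like the Zic genes it was joined to. Of the 12 annotated transcript starts of Zic4, 1 lies in its bait.

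Otx2 had few and weak contacts. Its bait, chr14:48666537-48670333, holds 5 of the 10 annotated transcript starts but not the outermost. In WT ESCs it was joined to the promoter fragment of Peli2, an E3 ubiquitin ligase gene, over 548 kb by 4 reads at a score of 5.72, and to fragments 84.8, 321 and 331 kb away by 7, 4 and 5 reads at scores of 5.17, 5.07 and 6.04. In EpiSCs its 1 contact lay 104 kb away, with 6 reads at 5.18, and Nanog-/- ESCs had 0. No contact of Otx2 was in more than 1 list. The 7 other baits within 500 kb also had fewer, with 21 contacts in WT ESCs, 11 in EpiSCs and 8 in the Nanog-/- line, pairs with Otx2 itself included. Peli2 was at 1.15 RPKM in WT ESCs, 8.62 in EpiSCs and 0.852 in the Nanog-/- line, and its contact with Otx2 was not listed in the state where it was highest nor in that where it was lowest. The super-enhancer list holds 4 fragments that begin 2.34 kb from the bait on the side of the gene's end, and the Otx2 bait had no listed contact with them.

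Pou3f1 had 1 contact that all 3 lists held. Its bait, chr4:124655747-124659790, was joined to the baited fragment of the small RNA gene U6.805 at chr4:124333593-124336310, 323 kb upstream, by 11 reads at 11.5 in WT ESCs, 8 reads at 10.1 in EpiSCs and 8 reads at 11.6 in the Nanog-/- line. In each list this was the highest score of the bait. A fragment 428 kb upstream was joined by 5 reads in WT ESCs and 4 in Nanog-/- ESCs, and EpiSCs had instead 4 reads to the fragment beside it, 430 kb away. The nearest partner, 3100002H09Rik at 45.6 kb with 22 reads, was listed in WT ESCs only. Contact numbers of Pou3f1 were 3, 3 and 2, while its RNA differed between EpiSCs and WT ESCs by 0.87 on the log2 scale after scaling and by 1.77 without it.

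The listed contacts of Sall1 lay mostly on different sides of the gene in WT ESCs and EpiSCs. Its gene is on the minus strand of chromosome 8, with the bait at chr8:89035455-89044951. In WT ESCs 4 of its 6 contacts lay 83.5 to 94.1 kb away past the end of the gene, with 17 to 22 reads and scores of 5.41 to 7.47, and 2 lay upstream. In EpiSCs 21 of 22 lay upstream, 204 to 747 kb away, in a stretch where no start of another protein-coding gene stands between bait and partner. The fragment printed above, 537 kb away, had 12 reads and the highest score, 13.0, and the next highest were 9.57 with 10 reads at 457 kb and 7.56 with 8 reads at 501 kb. Only the fragment chr8:89290871-89294142 was in both lists, with 10 reads in WT ESCs and 9 in EpiSCs. The other upstream partner in WT ESCs, 528 kb away with 8 reads, touches an EpiSC partner 530 kb away, also with 8 reads. Nanog-/- ESCs kept 1 contact, past the gene's end at 90.2 kb, with 15 reads at 8.69 against 20 reads at 6.80 in WT ESCs. Most EpiSC contacts were weak, with 4 of 22 at a score of 7 or more and 6 of 22 at 10 reads or more, against 1 and 5 of the 6 in WT ESCs. The 9 super-enhancer fragments between chr8:88989709 and 89018910, which begin 16.5 kb from the bait, had 0 listed contacts in all 3 lists. The 6 other baits within 500 kb had 12 contacts in WT ESCs, 16 in EpiSCs and 3 in the Nanog-/- line. Sall1 RNA differed by −0.90 in EpiSCs on the log2 scale after scaling, and by 0.003 without it, beside this larger number of contacts.

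Sall2 kept its contact number and raised its RNA level between WT ESCs and EpiSCs. The bait, chr14:52326647-52331861, had 19 contacts in both, of which 11 were in both lists, and 17 and 18 of them lay on the side of the gene body and beyond it, over Mettl3, Tox4, Supt16 and Chd8. Of the 11 shared contacts, 2 had more reads in EpiSCs and 9 fewer, with a median ratio of 0.765 against 0.833 for all shared pairs. The highest score in EpiSCs was 13.1 with 45 reads at chr14:52316445-52319437, 11.3 kb away in an intron of Sall2, where WT ESCs had 7.31 with 39 reads. In WT ESCs the highest were 11.7 with 16 reads at chr14:52255348-52257781, 72.7 kb away, and 11.7 with 14 reads at the baited fragment of AC159323.1, 119 kb away. The median distance was 112 kb in WT ESCs and 48.8 kb in EpiSCs. Of the genes at the contacted fragments, Hnrnpc, which encodes an RNA-binding protein, was at 508 RPKM in WT ESCs and 249 in EpiSCs after scaling, a log2 difference of −1.03. Tox4 was at 27.5 and 18.3 RPKM, Chd8, a chromatin remodeller gene, at 29.3 and 23.1, and Mettl3, an RNA methyltransferase gene, at 17.9 and 16.6.

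The intron fragment at 11.3 kb ends inside the other Sall2 promoter of RefSeq. That promoter, chr14:52316274-52316573 on the minus strand, has 129 of its 300 bases in the contacted fragment, while its start site lies on the next fragment, across the HindIII site given in capitals in the first line below. The second line gives the promoter within the bait, which has no HindIII site.

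Sall2 promoter next to the contacted fragment, chr14:52316274-52316573: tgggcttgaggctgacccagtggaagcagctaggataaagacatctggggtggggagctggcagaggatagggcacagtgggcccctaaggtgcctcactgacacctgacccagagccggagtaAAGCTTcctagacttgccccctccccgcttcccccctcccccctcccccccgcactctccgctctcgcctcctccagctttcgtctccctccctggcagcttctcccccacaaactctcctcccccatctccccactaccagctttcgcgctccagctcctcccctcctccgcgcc
Sall2 promoter in the bait, chr14:52328621-52328920: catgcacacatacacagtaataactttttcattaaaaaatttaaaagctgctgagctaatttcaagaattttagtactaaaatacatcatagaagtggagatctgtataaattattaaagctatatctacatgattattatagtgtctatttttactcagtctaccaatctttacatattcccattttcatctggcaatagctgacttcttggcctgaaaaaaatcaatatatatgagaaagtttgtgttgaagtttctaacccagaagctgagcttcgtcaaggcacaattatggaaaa

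In Nanog-/- ESCs Sall2 had 3 contacts, to Mettl3 with 11 reads, to AC159323.1 with 5 and to U6.128 with 16, at scores of 5.89, 5.36 and 5.25. All 3 were listed from the partner's bait and 0 from that of Sall2. In WT ESCs 18 of its 19 contacts were listed from its own bait. Of 3448 baits with 10 or more contacts from their own end in WT ESCs, 0.812% had 0 from it in Nanog-/- ESCs, and 0.696% had 0 in EpiSCs. This comparison was made after the Sall2 values were seen. The 17 other baits within 500 kb of Sall2 had 256 contacts in WT ESCs, 177 in EpiSCs and 125 in the Nanog-/- line, of which 6, 4 and 3 were with Sall2 itself. Sall2 RNA was not lower in these cells, at 7.44 RPKM against 4.50.

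**Figure D4:**
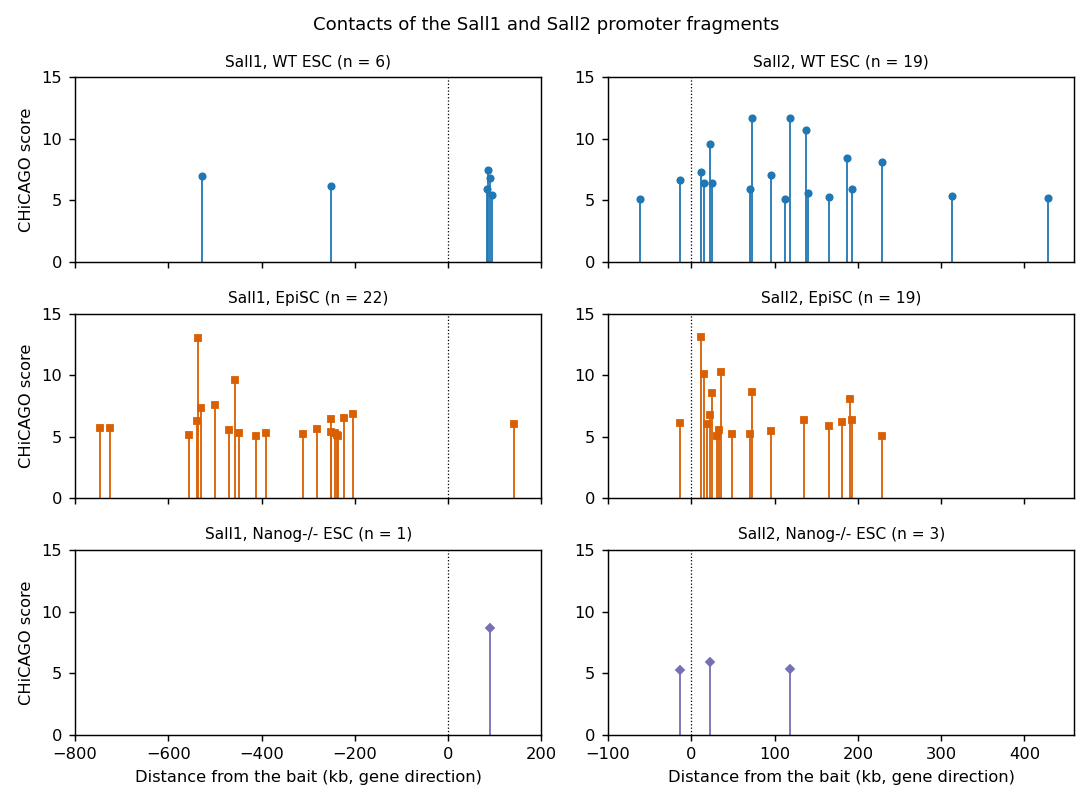
Each stem is a contact of the Sall1 (left) or Sall2 (right) bait in the WT ESC, EpiSC or Nanog-/- ESC list, placed by its distance from the bait in kb, with the direction of transcription to the right, and by its CHiCAGO score. Sall1 has 4 of 6 contacts past the gene in WT ESCs and 21 of 22 upstream in EpiSCs, and Sall2 has 19, 19 and 3 contacts.

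RNA levels and contact numbers of the same gene moved the same way in some comparisons with WT ESCs and not in others. Zic2 had more contacts in EpiSCs, 36 against 20, at a higher level, 57.1 against 29.3 RPKM, and Sall1 had fewer in Nanog-/- ESCs, 1 against 6, at a level lower by 0.76 on the log2 scale. Zic2 differed by −2.43 on the log2 scale in Nanog-/- ESCs with 21 contacts against 20 in WT ESCs. Sall2 rose in EpiSCs with the same number of contacts, and Otx2 had fewer contacts there at a scaled level that differed by 0.07. Sall1 went in opposite directions in EpiSCs, with more contacts and a lower level after scaling, though without scaling its level differed by only 0.003.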

How the data were processed

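RNA-seq and PCHi-C of WT ESCs, EpiSCs and Nanog-/- ESCs were used. The RPKM values were deposited as the authors' median of each group. The knockout column is headed BT12 and was matched to the Nanog-/- cells by the growth protocol and the series' design text. The same table holds the authors' log2 fold changes with their significance for EpiSCs and for the Nanog-/- line relative to WT ESCs, which were not used. The submitters' processing notes name Trim Galore, TopHat, DESeq2 and Bowtie 1.1.0, with GRCm38. By the methods, the authors filtered the PCHi-C reads with HiCUP, scored fragment pairs with CHiCAGO, and normalized and combined 2 biological replicates per state. The deposited lists give the CHiCAGO score and a read number per pair, which was treated as a score, without counting intervals, because it follows that combination. Read counting for RNA is not given in the sources used here. The depth of the libraries is unknown: the listed pairs hold 2177284, 1651286 and 1438555 reads in WT ESCs, EpiSCs and Nanog-/- ESCs.

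The RNA table has 15741 rows and 15646 different genes. EpiSC values were divided by the median EpiSC to WT ESC ratio, differences were taken of log2(RPKM + 1), and 2-fold was the threshold. A pair of fragments listed from both ends was counted once, with the higher score, and a bait's contacts include pairs listed from the partner's end. In the Nanog-/- list 1217 of 7297 such pairs had unequal reads at their ends, against 29 of 7324 in WT ESCs. Distances are between fragment midpoints. All fragments of the 8 genes had HindIII ends in GRCm38.p6. Genes were annotated with GENCODE M21, and sequences are from RefSeq, with promoters found for 6 of the 8 genes. Named genes were the 8 members, the 3 largest changes in either direction of each list, the nearest gene in level, the 3 highest scores of each bait and list, and Nanog. Some further genes at contacted fragments or neighbouring baits, such as Hnrnpc, were named outside this rule. The members, the gene lists and the motifs were chosen with earlier results of these data known. The scaling, the 2-fold RNA calls and the merging of pairs listed from both ends were tested on simulated data. Python 3.11.15 was used with numpy 2.4.6, pandas 2.3.3, scipy 1.17.1 and matplotlib 3.10.9. The ChIP-seq samples were not used here.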

Additional observations from a re-analysis of the deposited data

How the results depend on the processing

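No paired analysis was possible because each state is 1 pooled value or 1 combined list, and for the same reason no replicate could be left out. With a pseudocount of 0.1, 2 of the 8 genes were at least 2-fold higher in EpiSCs, beside 16.4% of all genes, and 1 was higher in Nanog-/- ESCs, beside 5.65%, the added gene being Zic1, which is below 1 RPKM throughout. Without the scaling of EpiSCs, 3 were higher. The other scalings gave the same counts, and Zic2 and Zic5 were at least 2-fold lower in Nanog-/- ESCs under every setting tried for that comparison. A score of 7 or more left 20 contacts in WT ESCs, 36 in EpiSCs, with 17 in the Nanog-/- line, and a minimum of 10 reads left 36, 43 and 17, so that the EpiSC list kept the most under both. Baits with at least 2-fold more contacts in EpiSCs were Sall1 and Zic2, 2 of 3 tested at a score of 7 or more, beside 18.8% of all baits, and 2 of 6 from the bait end only, beside 18.4%, or after division by list size, beside 17.7%. At 10 reads they were 0 of 3, beside 12.6%, with Sall1 at 6 contacts against 5. Baits with at least 2-fold fewer in EpiSCs numbered 0 of 3 at a score of 7, beside 35.6%, and 0 of 3 at 10 reads, beside 39.3%, since Otx2 and Zic1 fell under the minimum of 4 contacts. In Nanog-/- ESCs fewer were tested too: 1 of 2 had fewer at a score of 7 (Sall2), beside 30.7%, and 2 of 3 at 10 reads (Sall1 and Sall2), beside 40.5%. At a score of 7 or more, 75% of WT ESC contacts were held by EpiSCs, 52.8% of EpiSC contacts by WT ESCs and 36.1% of EpiSC contacts by Nanog-/- ESCs. With a direct neighbour of the partner allowed, the last 2 shares were 53.4% and 36.4%, against 36.4% and 20.5% for the same fragments. The cause of these differences was not tested. The median distances and the other shares moved by less than a factor of 1.5 or within their intervals. Low reads limit the weak contacts: those of Otx2, Zic1 and Pou3f1 rest on 4 to 22 reads apart from 1 of Zic1, and no replicate shows how far such a number can vary.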
